A study of Rattus norvegicus with 9 samples.

Results

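The endothelin and nitric oxide pathway was examined in the right ventricle of the rat, through 10 genes that encode its ligand, receptors, enzymes and cyclic GMP synthase subunits. A member had to be named alone by a feature of the deposited table, and its brightest feature over the 9 arrays was used. This gave values for 8 of the 10 genes (Edn1, Ece1, Nos2, Nos3, Ddah1, Gucy1a1, Gucy1b1 and Ptgis), out of 14506 genes with such a feature. The receptor genes Ednra and Ednrb had no such feature and were not analysed here. The rats were male and of the SD (Sprague-Dawley) strain, and the sources used here do not give their age at operation. The Sham group had a sham operation. Rats of the PAB_F(-) and PAB_F(+) groups had pulmonary artery banding (PAB), a constriction against which the right ventricle has to pump. Hearts were taken 4 weeks after surgery, and the banded ones were divided at a fibrotic area of 6.5%, the F- group below it and the F+ group above it. Each group was measured on 3 arrays. No source states that the 3 arrays of a group were 3 animals, so the p-values reflect only how far these arrays scatter, and that scatter may be technical.

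Endothelin-1 is made as a precursor by endothelial cells and other cells, and endothelin-converting enzyme cuts it to its active form. It constricts vessels through receptor A on smooth muscle, while receptor B on the endothelium releases nitric oxide and prostacyclin and clears the peptide. Nitric oxide synthases make nitric oxide from arginine, and nitric oxide binds soluble guanylate cyclase, a dimer of an alpha and a beta subunit, which makes cyclic GMP and relaxes smooth muscle. Asymmetric dimethylarginine (ADMA) inhibits the synthases and is broken down by the enzyme that Ddah1 encodes. In the heart and lung this balance of constriction and relaxation is known for its part in pulmonary hypertension and pressure overload, and endothelin-1 also acts on cardiomyocytes and fibroblasts.

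The promoter windows of Edn1 and Ddah1, the 2 members with the largest positive differences between the F+ and F- groups, and of Nos3, the endothelial synthase whose groups overlapped, are shown for their unlike base composition and motifs. Each window is the RefSeq sequence of assembly GRCr8, from 250 bases before to 50 bases after the start that the sequence table uses, written 5′ to 3′ along the gene. For Edn1, Ddah1 and Ece1 that start is the first annotated base of the gene. For Nos3 it lies 23 bases inside the annotated gene, for Gucy1b1 73 and for Gucy1a1 737, so positions count from the start of each window's own table entry. That of Edn1 lies at chr17:22666638-22666937 on the minus strand, that of Ddah1 at chr2:237327562-237327861 on the plus strand, and that of Nos3 at chr4:11706532-11706831 on the minus strand. Capitals mark matches on either strand to any of the motifs searched. These were the TATA box, spelled TATAAA, the GC box, spelled GGGCGG, and the core of the hypoxia response element, spelled ACGTG. Sites for GATA factors were searched as AGATAA and, in a variant form, as TGATAA. The AP-1 site was searched as TGACTCA, with TGACTAA as an AP-1-like form.
Edn1: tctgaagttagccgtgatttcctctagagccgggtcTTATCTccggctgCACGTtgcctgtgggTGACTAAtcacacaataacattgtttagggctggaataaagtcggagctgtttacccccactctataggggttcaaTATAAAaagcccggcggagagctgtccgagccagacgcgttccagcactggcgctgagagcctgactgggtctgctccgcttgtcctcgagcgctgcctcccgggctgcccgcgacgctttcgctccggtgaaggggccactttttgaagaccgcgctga
Ddah1: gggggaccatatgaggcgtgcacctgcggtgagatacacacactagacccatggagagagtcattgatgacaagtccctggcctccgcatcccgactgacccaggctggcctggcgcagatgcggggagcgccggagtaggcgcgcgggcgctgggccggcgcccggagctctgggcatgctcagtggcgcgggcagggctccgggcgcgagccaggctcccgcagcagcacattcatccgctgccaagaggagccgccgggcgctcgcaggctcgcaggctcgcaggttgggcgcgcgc
Nos3: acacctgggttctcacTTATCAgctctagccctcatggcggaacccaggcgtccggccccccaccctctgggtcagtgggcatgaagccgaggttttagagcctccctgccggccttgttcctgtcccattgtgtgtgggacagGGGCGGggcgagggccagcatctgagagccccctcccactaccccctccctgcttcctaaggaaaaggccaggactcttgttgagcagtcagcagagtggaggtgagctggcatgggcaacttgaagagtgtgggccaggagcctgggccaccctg
The Edn1 window, with 57.3% G and C, held 4 of these motifs, with no overlap between them. They were a GATA match on the opposite strand from -214 to -209, the hypoxia response core on the opposite strand from -201 to -197, the AP-1-like form from -186 to -180 and the TATA box from -110 to -105 relative to that start. Of all 33469 windows, 11.6% held this form of the GATA motif, 19.3% the hypoxia response core, 2.34% the AP-1-like form and 14.2% the TATA box. The Ddah1 window, with 71.0% G and C, held none of the letters searched. The Nos3 window, with 63.0% G and C, held the variant GATA form on the opposite strand from -234 to -229, found in 9.03% of all windows, and the GC box from -106 to -101, found in 33.1%. Of the 6 members with a window in the table, Edn1 held the TATA box and the AP-1-like form, and Ece1, Gucy1a1, Gucy1b1 and Nos3 held the GC box. The AP-1 site itself was in none of the 6 and in 4.63% of all windows. A match is a description of letters, not a measured binding site.

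**Figure D1:**
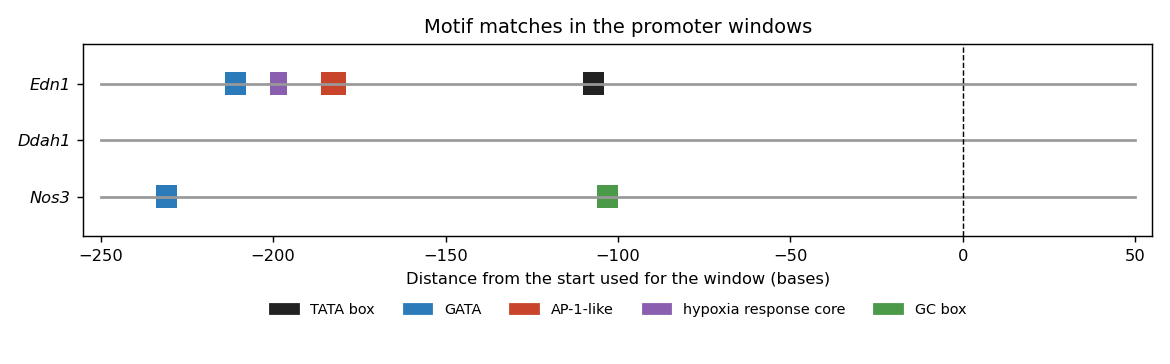
Motif matches (coloured blocks) in the promoter windows of Edn1, Ddah1 and Nos3, by distance in bases from the start used for each window (horizontal axis, dashed line at that start, which for Nos3 lies 23 bases inside the annotated gene). The 4 matches of Edn1 lie between -214 and -105, Ddah1 has none, and Nos3 has a GATA match and a GC box.

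The arrays were alike over all features (pairwise Pearson r of log2 values 0.978 to 0.990), and the defining cardiomyocyte genes Myh6, Tnnt2 and Actn2 lay at the 99.5 to 99.8 percentile of features in brightness. Sham array 2 stood apart in atrial genes. Bmp10, a growth factor of the atrium, was 85.8 there and 15.5 to 18.9 on the other arrays, and the summed value of 6 atrial genes was 642.2 there and 345.7 to 437.3 elsewhere. Nppa was high on sham array 2 (135.8), F- array 1 (155.6) and the F+ arrays (134.3 to 149.5). Sham array 1 stood apart in genes that respond early to stress, with Egr1 at 137.6 there and 87.2 to 106.5 elsewhere, and Fos at 88.9 there and 47.9 to 70.7 elsewhere. The summed value of 8 genes of transcription factors that act on endothelial genes, Egr1 and Fos among them, was 669.6 on sham array 1 and 530.6 to 588.2 on the others. Each comparison was also made without sham array 1, and without sham array 2 and F- array 1. Values of different genes come from different probes and were not set against each other. In whole tissue, fewer cells of a type and less RNA per cell cannot be told apart.

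The expression levels of Edn1 mRNA, which encodes the precursor of endothelin-1, separated the F+ from the F- arrays, with every F+ value the higher. The F+ arrays gave 29.2, 33.9 and 40.9, the F- arrays 22.5, 25.5 and 27.3, and the sham arrays 31.8, 29.0 and 26.8. The highest F- array was thus close to the lowest F+ array, and the sham arrays overlapped both banded groups. F+ averaged 34.7 ± 5.89, F- 25.1 ± 2.43 and Sham 29.2 ± 2.51 (SD, n = 3 each). For F+ relative to F-, the difference of log2 means, called the log2 difference here, was 0.46 (standard error 0.13, 95% confidence interval (CI) 0.16 to 0.76), a fold of 1.37 if the deposited values are on a linear scale, which is not stated. On square roots of the deposited values the Edn1 difference was 0.87 and that of Ddah1 0.72. On log2 values the unadjusted p of Edn1 was 0.00809 and its adjusted p 0.601 from limma, so it did not pass. The spread of Edn1 within groups was wide, with a log2 SD of 0.178 against a median of 0.063 over all features. Its feature lay at the 42.3 percentile of features in brightness, and whether it stood above background was not tested. F+ array 3 held the highest value, and without it the log2 difference was 0.33, still in the same direction. Without sham array 2 and F- array 1 it was 0.38. Set against the Sham group, Edn1 had log2 differences of -0.22 in F- (95% CI -0.52 to 0.080) and 0.24 in F+ (95% CI -0.062 to 0.54). Neither passed (limma adjusted p 0.745 and 0.707). The F+ value against Sham was 0.11 without F+ array 3 and 0.35 without F+ array 1 (unadjusted p = 0.0205 from limma). The F- value was -0.14 without F- array 1, and without sham array 1 the F- and F+ values were -0.16 and 0.30.

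Ece1, the endothelin-converting enzyme, showed a small difference in the same direction. The F+ arrays gave 77.1, 76.1 and 73.1 and the F- arrays 70.2, 72.8 and 72.8, so that the groups did not overlap, although the lowest F+ array lay just above the highest F- array. The sham arrays, at 73.3, 73.6 and 75.6, lay among the F+ arrays and above the F- arrays. Comparing F+ with F-, its log2 difference was 0.068 (standard error 0.030, unadjusted p = 0.0560, limma adjusted p 0.674). Against the Sham group the log2 difference was -0.044 in F- and 0.024 in F+, and both intervals included 0.

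Nos2, the inducible nitric oxide synthase known from macrophages and inflamed tissue, had lower values in F+. The F+ arrays gave 36.7, 35.1 and 36.7, the F- arrays 38.9, 39.4 and 38.1, and the sham arrays 37.0, 37.7 and 38.3. All F+ arrays lay below the other 6 arrays, with F+ arrays 1 and 3 close to sham array 1. In the F+ to F- comparison, the log2 difference was -0.10 (standard error 0.029, 95% CI -0.17 to -0.034), at unadjusted p = 0.00842 and limma adjusted p 0.601. Its within-group log2 SD of 0.0294 was among the smaller ones, above that of 12.8% of features. Against the Sham group the log2 difference was 0.043 in F- and -0.059 in F+, with limma adjusted p 0.754 and 0.690. The summed value of 12 macrophage genes, with all 12 measured, was 730.2 to 782.4 in F+, 607.3 to 732 in F- and 618.5 to 658.2 in Sham, the opposite direction to Nos2. The part of macrophages in the values of Nos2 was not tested.

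Ddah1 encodes dimethylarginine dimethylaminohydrolase 1, which degrades the synthase inhibitor ADMA, and it separated the F+ group from both others. The F+ arrays gave 82.7, 88.9 and 82.0, the F- arrays 72.6, 67.6 and 75.2, and the sham arrays 76.3, 74.2 and 65.6. Every F+ array lay above the other 6 arrays, and the F- and sham arrays were mixed. F+ averaged 84.5 ± 3.80, F- 71.8 ± 3.86 and Sham 72.0 ± 5.67 (SD, n = 3 each). The log2 difference of the F+ group was 0.24 from F- (standard error 0.067, 95% CI 0.081 to 0.39) and 0.23 from Sham (95% CI 0.078 to 0.39). These comparisons share the F+ arrays. Without sham array 2 and F- array 1 the values were 0.24 and 0.26. The unadjusted p over all arrays were 0.00816 and 0.00871, and their adjusted p 0.601 and 0.616 from limma, so neither passed. F- against Sham, the log2 difference of Ddah1 was -0.0030 (95% CI -0.16 to 0.15).

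Nos3, the endothelial nitric oxide synthase, overlapped between all groups. The sham arrays lay close together at 63.2, 62.6 and 63.3, while the F- arrays gave 59.7, 63.7 and 58.8 and the F+ arrays 65.2, 62.5 and 58.8. F+ against F-, its log2 difference was 0.033 (95% CI -0.071 to 0.14, limma adjusted p 0.872). That of the F- group from Sham was -0.054 (95% CI -0.16 to 0.050), and that of the F+ group -0.021 (95% CI -0.13 to 0.083). The SD within Sham was 0.379, against 2.61 in F- and 3.21 in F+.

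**Figure D2:**
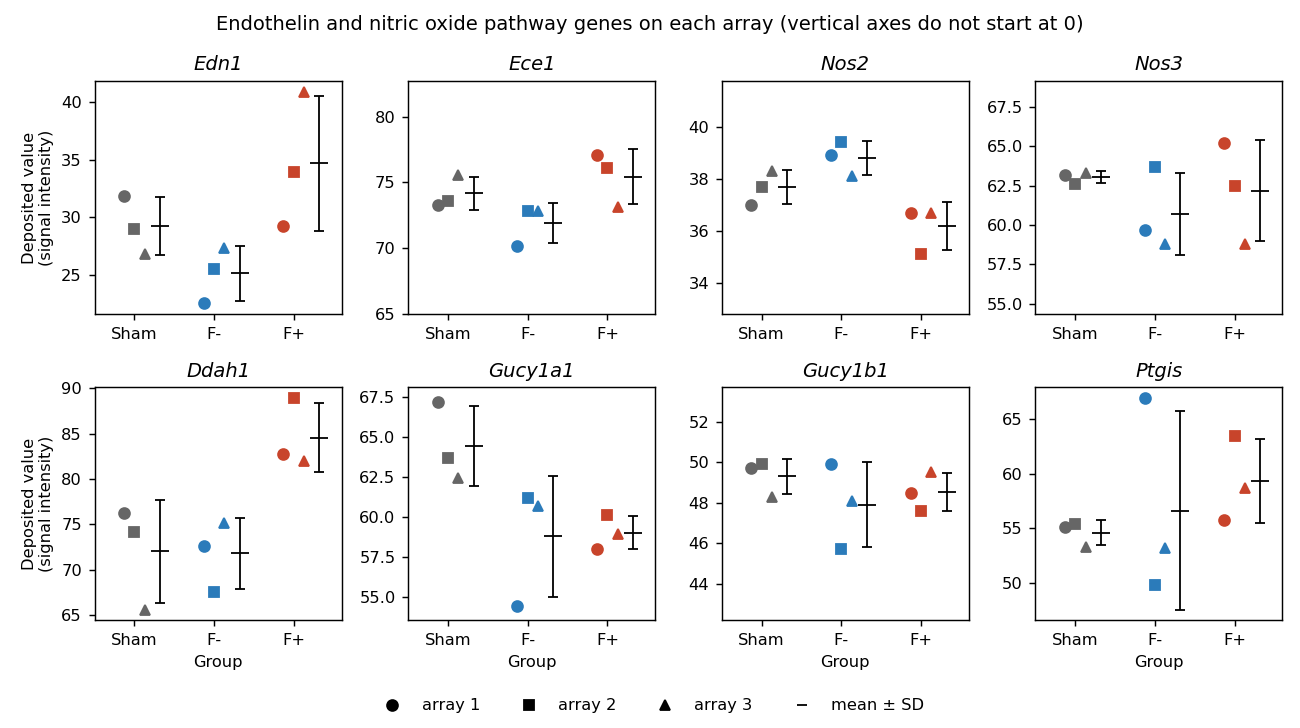
Deposited values (vertical axes, signal intensity, not from 0) of the 8 genes on each array of the Sham, F- and F+ groups. Circles are arrays 1, squares arrays 2 and triangles arrays 3, and bars give the mean ± SD. The F+ arrays of Ddah1 lie between 82.0 and 88.9 above the other 6, those of Nos2 between 35.1 and 36.7 below them, and those of Edn1 above the F- arrays only.

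Gucy1a1 and Gucy1b1 encode the alpha and beta subunits of soluble guanylate cyclase, and they lie near each other on chromosome 2 (GRCr8, 169716684 to 169780360 and 169646897 to 169697060). Gucy1a1 was lower in both banded groups than in Sham. The sham arrays gave 67.2, 63.7 and 62.4, the F- arrays 54.4, 61.2 and 60.7, and the F+ arrays 58.0, 60.1 and 58.9. Each banded array lay below each sham array, and the banded groups overlapped each other. From the Sham group the log2 difference was -0.13 in F- (standard error 0.051, unadjusted p = 0.0305, limma adjusted p 0.743) and -0.13 in F+ (unadjusted p = 0.0384, limma adjusted p 0.660). These comparisons share the sham arrays. F- array 1 held the lowest value, and without it the first was -0.079 (unadjusted p = 0.0733 from limma). The unadjusted p of the first was also above 0.05 without sham array 1 or sham array 2, and that of the second without sham array 1, sham array 2 or any 1 of the 3 F+ arrays. Sham array 1, which stood apart in early response genes, held the highest Gucy1a1 value, and without it the values were -0.10 in F- and -0.096 in F+. For F+ relative to F-, it was 0.0076 (95% CI -0.11 to 0.13). Gucy1b1 had 49.7, 49.9 and 48.3 in Sham, 49.9, 45.7 and 48.1 in F- and 48.5, 47.6 and 49.5 in F+. All of its groups overlapped, and its log2 differences lay between -0.042 and 0.020.

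Ptgis encodes prostacyclin synthase, which makes a vasodilator of the endothelium, and its banded groups overlapped, with F- array 1 far above the other F- arrays. The sham arrays gave 55.1, 55.4 and 53.3, the F- arrays 66.9, 49.8 and 53.2, and the F+ arrays 55.8, 63.4 and 58.7. Each F+ array lay above each sham array, and F- array 1 lay above all 8 others. The log2 difference was 0.076 between the F+ and F- groups (95% CI -0.16 to 0.32) and 0.12 between the F+ and Sham groups (95% CI -0.12 to 0.36), with limma adjusted p 0.872 and 0.797. Without F- array 1 the first was 0.20 (unadjusted p = 0.0113, limma adjusted p 0.287). Ptgis had another, dimmer feature, and on it the log2 difference was 0.0099 between the F+ and F- groups and 0.013 between the F+ and Sham groups. The 2 features thus gave different sizes.

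None of the members passed limma over all features in any comparison. Between the F+ and F- groups 0.00342% of all features passed, and 0% passed in each of the other comparisons. F+ against F-, 3 of the 8 members had an unadjusted p under 0.05 (Edn1 and Ddah1 higher, Nos2 lower), where 7.41% of all features did, 3.65% higher and 3.76% lower. The arrays of the groups did not overlap in 4 of the 8 (Edn1, Ece1 and Ddah1 higher, Nos2 lower), where 9.74% of all features did not, 4.46% higher and 5.28% lower. The median log2 difference was 0.051 over the members and -0.0023 over all features, with 7 members above 0 and 1 below, where 48.2% of all features were above 0. F- against Sham, 1 of the 8 members had an unadjusted p under 0.05 (Gucy1a1, lower), against 6.03% of all features, 3.07% higher and 2.96% lower, and 2 did not overlap (Ece1 and Gucy1a1, lower), against 9.79%, 5.15% higher and 4.64% lower. The count of 2 was 4 without F- array 1, F- array 3 or sham array 3, and 1 with median centring. Leaving out an array makes non-overlap easier to reach for any feature, and the share of all features was not computed in these settings. Of the members 2 were above 0, against 48.2% of features, and their median was -0.043 against -0.0025. F+ against Sham, 2 had an unadjusted p under 0.05 (Ddah1 higher, Gucy1a1 lower), against 7.4% of all features, 3.5% higher and 3.9% lower, and 4 did not overlap (Ddah1 and Ptgis higher, Nos2 and Gucy1a1 lower), against 12.2%, 5.69% higher and 6.56% lower. Here 4 members were above 0, against 47.5% of features, and their median was 0.0015 against -0.0035. Edn1, Nos2 and Ddah1 each kept an unadjusted p under 0.05 between the F+ and F- groups in 19 of 19 other settings, with the same direction, and their adjusted p stayed at 0.336 or above. These settings reuse the same arrays, and several leave the group means unchanged, so they are not independent checks. The members were chosen with results known, so these counts are descriptions.

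**Figure D3:**
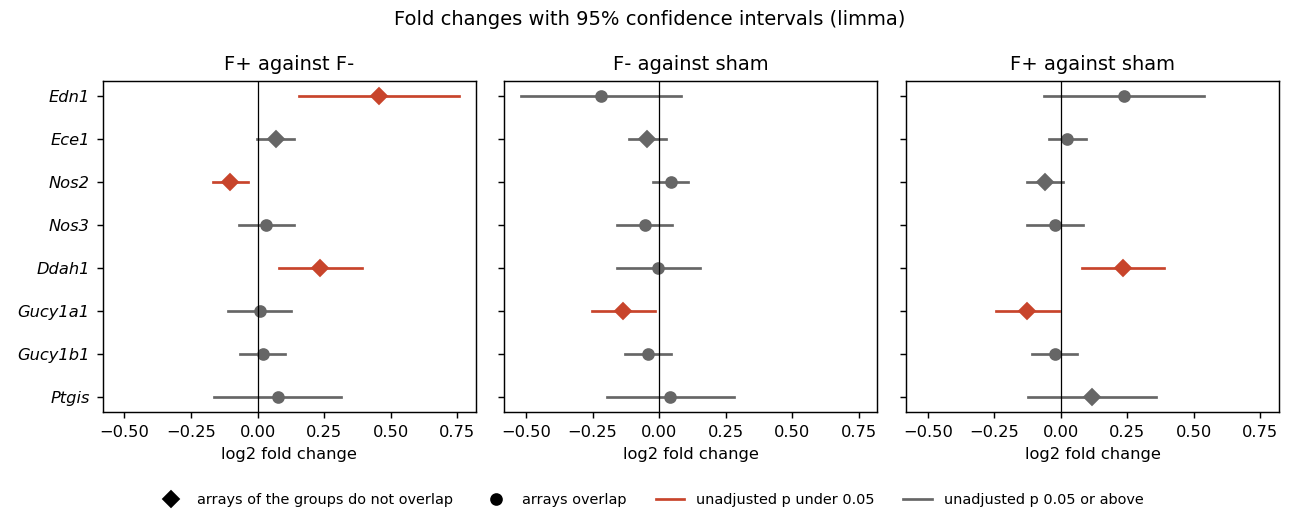
Log2 fold changes (the log2 differences of the text, horizontal axes) of the 8 genes with 95% CIs as lines, for F+ against F-, F- against sham and F+ against sham. Diamonds mark genes whose groups did not overlap and red an unadjusted p under 0.05 from limma. Edn1, Nos2 and Ddah1 are red on the left, Gucy1a1 in the middle, and Ddah1 and Gucy1a1 on the right.

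Of 85 other genes of the pathway in 8 lists, 83 had a feature, and 0 passed limma over all features in each of the 3 comparisons. Comparing F+ with F-, 11 of the 83 (13.3%) had an unadjusted p under 0.05, 10 higher and 1 lower, against 7.41% of all features. Of these 11, 6 were among the 14 genes of prostanoid synthesis and receptors, and each of the other lists held 0 to 2. F- against Sham, 3 of the 83 (3.61%) had an unadjusted p under 0.05, against 6.03% of all features. F+ against Sham, 11 (13.3%) did, 6 higher and 5 lower, against 7.4%. The median log2 difference of the 83 genes was 0.0079, -0.030 and -0.0082 in these 3 comparisons. The first count of 11 was 6 without F- array 2, without F- array 3 or without F+ array 2. The last became 5 when F+ array 2 was left out, 6 with sham array 1 left out and 7 with sham array 3. The count of 3 became 6, 5 and 1 with F- array 1, F- array 2 and sham array 1 left out in turn.

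Genes of prostanoid synthesis and receptors held 6 of the 10 higher genes. These were 6 of the 14 in the list, where 3.65% of all features were higher at an unadjusted p under 0.05. Of the 14 in the list, 11 had higher values in F+ than in F-, with a median log2 difference of 0.099, where 48.2% of all features were higher and their median was -0.0023. Ptgds, which encodes a prostaglandin D2 synthase, was 48.7, 51.3 and 43.3 in F+, 40.0, 33.4 and 31.4 in F- and 35.3, 33.1 and 37.6 in Sham. Its log2 difference was 0.46 from F- and 0.43 from Sham (limma adjusted p 0.503 and 0.600). The F+ arrays of Ptgds lay above the other 6. Ptgs1, which encodes cyclooxygenase 1, was likewise highest in F+, at 50.5, 51.5 and 45.5 against 45.1, 37.7 and 38.0 in F-, a log2 difference of 0.29 (limma adjusted p 0.601). Ptger2, a receptor for prostaglandin E2, had 30.3, 27.9 and 28.1 in F+, 26.3, 25.1 and 25.2 in F- and 27.9, 29.0 and 27.9 in Sham. It was thus lower on each F- array than on all others, with log2 differences of 0.17 between the F+ and F- groups and -0.15 between the F- and Sham groups (limma adjusted p 0.516 and 0.743). In the F+ to F- comparison, Ptgir, the prostacyclin receptor, had a log2 difference of 0.15, Pla2g4a, a phospholipase that releases arachidonic acid, 0.23, and Tbxas1, the thromboxane synthase, 0.30. The count of 6 was 3 without F- array 2 and 3 without F- array 3. The summed value of the 14 genes was 582.4, 536.7 and 542.4 in F-, 585, 618.8 and 587.7 in F+ and 562.6 to 576.3 in Sham. That of the 12 macrophage genes was 732, 607.3 and 607.7 in F- and 730.2, 782.4 and 748.5 in F+, so that both sums were highest on F- array 1 within F- and on F+ array 2 within F+. The same held for the sums of mast cell, smooth muscle and pericyte, and atrial genes, so it was not particular to macrophages. It did not hold for those of endothelial, fibroblast, cardiomyocyte and red cell genes. The part of macrophages or other cells in the prostanoid values was not tested.

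Among regulators of nitric oxide synthesis, Nostrin, which encodes a protein that moves endothelial synthase away from the membrane, was higher on most F+ arrays. It gave 36.5, 32.3 and 36.8 there, 32.6, 30.0 and 28.0 in F- and 29.7, 30.6 and 30.6 in Sham. F+ array 2 lay just below F- array 1, and the log2 difference was 0.22 from F- and 0.21 from Sham (limma adjusted p 0.623 and 0.616). F+ against F-, it was 0.091 for Nos1ap, an adaptor of the neuronal synthase, and 0.16 for Slc7a2, a transporter of arginine (limma adjusted p 0.672 and 0.674). In the whole list of 16 genes, 8 were higher and 8 lower, where 48.2% of all features were higher. An unadjusted p under 0.05 was reached by 2, both higher, against 3.65% of all features higher and 7.41% in either direction. Nos1 itself, the neuronal synthase, had 27.1 to 29.5 over the 9 arrays.

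Genes of the synthase cofactor tetrahydrobiopterin were few and varied. Qdpr, which regenerates it, was 58.8, 58.3 and 65.7 in F+ and 65.8 to 67.8 in F-, a log2 difference of -0.13 (limma adjusted p 0.642). F+ array 3 lay close to the F- arrays. Gch1, the first enzyme of its synthesis, had a log2 difference of 0.090 and Pts, the next enzyme, of 0.068. Of 3 genes listed under ADMA metabolism, Agxt2 and Ddah2 had log2 differences of 0.067 and 0.011 between the F+ and F- groups, and Prmt1, a methyltransferase, of -0.049. None of the 3 had an unadjusted p under 0.05 there (Ddah2 limma adjusted p 0.980), and whether Ddah1 and Ddah2 differed from each other was not tested.

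Of 15 genes of cyclic GMP signalling and breakdown, none had an unadjusted p under 0.05 between the F+ and F- groups, against 7.41% of all features. There 8 were higher and 7 lower, where 48.2% of all features were higher, and the median log2 difference was 0.00091. Gucy1b2, a further guanylate cyclase subunit, and Pde1a, a phosphodiesterase, had 0.060 and 0.088. Pde1c, which breaks down cyclic AMP and cyclic GMP, had -0.098, and its groups did not overlap. Against the Sham group, 2 of the list reached an unadjusted p under 0.05 for F+, both lower. The share of all features was 3.9% lower and 7.4% in either direction. Pde3a, a phosphodiesterase of heart and vessels that cyclic GMP inhibits, was 94.6, 94.1 and 94.8 in Sham and 89.9, 87.8 and 85.6 in F+, a log2 difference of -0.11 (limma adjusted p 0.620). The F- arrays of Pde3a gave 85.2, 91.4 and 91.8, also below the sham arrays. The F- arrays of Pde1c all gave 30.8, and its log2 difference of F+ from Sham was -0.20 (limma adjusted p 0.633). Pde5a, the phosphodiesterase specific to cyclic GMP, had a log2 difference of 0.024 there.

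None of 6 other genes of endothelin ligands and processing had an unadjusted p under 0.05 between the F+ and F- groups, where 7.41% of all features did. Edn2 and Edn3 encode further endothelins, and their values were nearly flat, 29.0 to 32.1 and 25.6 to 28.6 over the 9 arrays, with several arrays at the same value. Ece2, a related converting enzyme, was 30.1, 28.9 and 29.8 in F+ and 30.4 to 31.4 on the other 6, a log2 difference of -0.050 from F- and -0.065 from Sham (limma adjusted p 0.698 and 0.656). For F+ relative to F-, it was -0.049 for Edn2 and -0.051 for Mme, the protease neprilysin, which degrades peptides. Of 16 genes that act below the endothelin receptors, 1 had an unadjusted p under 0.05 between the F+ and F- groups, against 7.41% of all features. This was Gnai2, an inhibitory G protein subunit, at 123.6, 123.7 and 124.4 in F+ against 115.1 to 120.5 on the other 6, a log2 difference of 0.080 from either group (limma adjusted p 0.635 and 0.616). Arrb1, an arrestin, and Rock2, a kinase of smooth muscle contraction, had 0.11 and 0.037 between the F+ and F- groups.

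**Figure D4:**
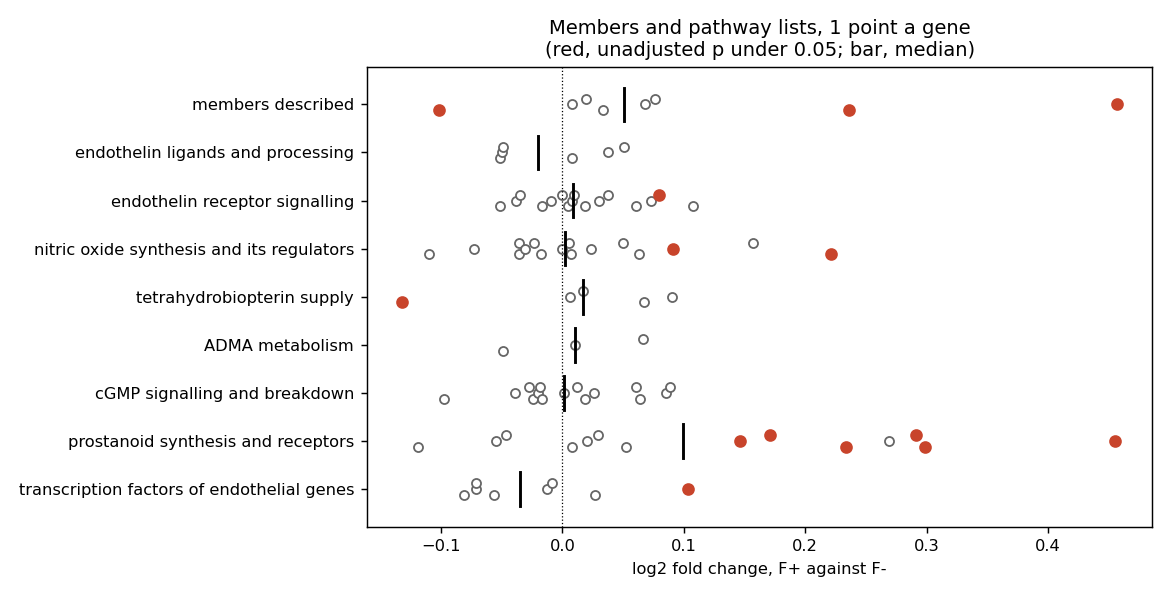
Log2 fold changes between the F+ and F- groups (horizontal axis), 1 point a gene, for the 8 members and 8 pathway lists, with the median of each as a black bar and an unadjusted p under 0.05 from limma in red. The red points of the prostanoid list lie to the right of 0, and most lists have medians near 0.

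Of 8 genes of transcription factors that act on endothelial genes, 2 were higher and 6 lower in F+ than in F-. Over all features, 48.2% were higher. Gata2, a GATA factor, was 52.2, 48.5 and 47.3 in F+ and 44.5, 45.9 and 47.3 in F-, a log2 difference of 0.10 (unadjusted p = 0.0380, limma adjusted p 0.671). The lowest F+ array was level with the highest F- array. Hif1a, the hypoxia factor, had -0.056 and Jun, an AP-1 subunit, -0.081 (limma adjusted p 0.785 and 0.832). Klf2, an endothelial factor known to respond to flow, had a log2 difference of -0.11 between the F+ and Sham groups (limma adjusted p 0.748), with 72.6 on sham array 1 and 56.4 to 60.4 on the other 8.

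Values of genes from the cell types that use the pathway are given here as a description. All 12 smooth muscle and pericyte genes had higher values in F+ than in F-, where 48.2% of all features did, with a median log2 difference of 0.092. Of these, 6 had an unadjusted p under 0.05, all higher, against 3.65% of all features higher and 7.41% in either direction. All 12 had lower values in F- than in Sham, with a median of -0.059, where 48.2% of all features were above 0. Their summed value was 885.8 to 908.7 in F+, 843 to 856.7 in F- and 876.5 to 894.3 in Sham, where the F+ and Sham ranges overlapped. Of 11 endothelial genes with a feature, out of 12, 8 were higher in F+ than in F-, against 48.2% of all features, and 4 of them had an unadjusted p under 0.05, against 3.65%. Their summed value was 904.7 to 920.4 in F+, 868.7 to 887.2 in F- and 878.7 to 924.5 in Sham, where sham array 1 was the highest. No gene of these lists passed limma over all features. Of 10 cardiomyocyte genes, 9 had lower values in F+ than in F-, where 48.2% of all features were higher. None of the 10 had an unadjusted p under 0.05, against 7.41% of all features. Their sums overlapped between the groups, at 1521.7 to 1552 in F+ and 1546.4 to 1562.8 in F-. Summed values of 5 red cell genes, 180.4 to 292.2 in F+ and 129.6 to 161.5 on the others, and of 5 mast cell genes, 127.1 to 160.8 and 116.4 to 127, were also higher there, and those of 10 fibroblast genes overlapped. The part of these cell types in the values of Edn1, Ddah1 and Gucy1a1 was not tested.

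Over the 9 arrays, the genes whose log2 values followed Edn1 most closely among 14505 others were Tcf12, a transcription factor (Pearson r = 0.961), Adm2, which encodes a vasodilator peptide (r = 0.941), and Ebf1, a transcription factor (r = 0.940). The values of Tcf12 were 79.1, 79.5 and 80.9 in F+, 76.9, 77.5 and 78.4 in F- and 79.2, 77.9 and 77.6 in Sham. For Nos3 they were Alk, a receptor kinase (r = 0.962), Grin1, a glutamate receptor subunit (r = 0.948), and Ift27, a protein of cilia (r = 0.940). Alk and Grin1 each had the same value on all 3 sham arrays, 22.7 and 18.2. These are the highest of many correlations over few arrays, which share their groups, and they are given as a description.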

How the data were processed

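Total RNA of rat right ventricles was hybridized to Affymetrix GeneChip Rat Gene 1.0 ST arrays, 9 in all. The authors deposited 1 table of signal intensity, with 1 value for each of 29215 features on each array. How they were summarized, normalized and scaled was not given in the sources used here. Values ran from 1 to 190.4, and the array medians from 33.4 to 33.9. The methods name TRIzol and the sample records Sepasol for the RNA extraction.

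The platform annotation gave 1 gene symbol for 15310 features and several for 323, and did not list 13582. Each gene was represented by its feature with the highest mean over the 9 arrays. Log2 values were compared between groups with limma 3.58.1 in R 4.3.3 (lmFit, eBayes), with 1 mean per group. All 9 arrays shared the estimate of the spread. Benjamini-Hochberg adjustment covered all 29215 features, and the threshold was 0.05. The procedure was tested on simulated data.

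The members and gene lists were chosen with earlier results of these data known. All members with a feature are named. Of each pathway list the 3 genes with the smallest p between the F+ and F- groups were to be named, with the 1 gene with the smallest p between F+ and sham. Ptgir, Pla2g4a, Tbxas1, Edn3, Nos1, Pde5a, Egr1, Fos and the single marker genes were added after their values were seen. For Edn1 and Nos3 the 3 genes with the highest Pearson r over the 9 arrays were named. Results were recomputed after centring on medians, after quantile normalization, on brighter features alone, on singly named features alone, on square roots, as arithmetic ratios, with a gene's features averaged, with a variance trend, with the 2 groups of a comparison alone, with replicate number as a block, and with arrays left out. Promoter windows came from RefSeq (GRCr8) and were searched with Python 3.11.15 and pandas 2.3.3. Plots were drawn with matplotlib 3.10.9.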

Additional observations from a re-analysis of the deposited data

How the results depend on the processing

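No member passed limma's adjusted threshold in any comparison under any of 19 other settings with a test, and the lowest adjusted p of a member was 0.287. No pathway gene passed either. Between the F+ and F- groups, Edn1 ranged from 0.33 to 0.57, Ddah1 from 0.19 to 0.27 and Nos2 from -0.11 to -0.080 on the log2 scale. On square roots of the deposited values, which would be log2 values if the deposited ones were squares of them, these differences were 0.87, 0.72 and -0.22. Over the 8 members and 3 comparisons, 466 of 480 values under another setting kept their direction, and 640 of 643 did for named pathway genes. The features that passed between the F+ and F- groups, 1 in all, were 3 with only features of 1 symbol, without the dimmest features, with a mean-variance trend and robust priors, and without sham array 2 and F- array 1 together, and 0 with only the 2 groups compared and with the replicate block. They ranged from 0 to 3 with single arrays left out. Between the F+ and sham-operated groups 1 feature passed with only the 2 groups compared and 1 without sham array 2 and F- array 1, against 0. Members with an unadjusted p under 0.05 between the F- and sham-operated groups, 1 in all (Gucy1a1), were 0 with only the 2 groups compared, with the replicate block and without sham array 2 and F- array 1, and 0 to 1 with single arrays left out. Between the F+ and sham-operated groups, 2 became 1 with the replicate block, and 1 to 2 with single arrays left out. Equal replicate numbers did not pair the arrays (correlations of deviations from the group means -0.205 to 0.0532), and the block left 3 members between the F+ and F- groups. That count was 3 to 4 with single arrays left out and 4 on square roots. Members whose groups did not overlap there, 4 in all, were 6 without F- array 1. With fewer arrays non-overlap is easier to reach for any feature, and the share of all features was not computed without that array. Values near 0 turned. For Ddah1 between the F- and sham-operated groups the value was 0.0056 with median centring, 0.011 without sham array 2 and F- array 1, and -0.069 to 0.040 with single arrays left out. Without those 2 arrays it was -0.047 for Gucy1a1 between the F+ and F- groups and -0.074 for Ptgis between the F- and sham-operated groups. With single arrays left out, the F+ against F- values were -0.047 to 0.038 for Gucy1a1, -0.014 to 0.050 for Gucy1b1, -0.0018 to 0.073 for Nos3, -0.011 to 0.20 for Ptgis, -0.079 to 0.066 for Ddah2 and -0.020 to 0.12 for Pts. They were -0.085 to 0.13 for Ptgis between the F- and sham-operated groups and -0.056 to 0.018 for Nos3 between the F+ and sham-operated groups. The causes were not tested. With 3 arrays a group, precision was limited throughout.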
